A study of Mus musculus with 12 samples.

Results

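The zinc finger gene cluster near the end of chromosome 4 was examined in nucleosome calls of mouse male germ cells, over chr4:145000001-148000000 of build mm10. All calls whose midpoint lay in this interval of 3 Mb were taken, 8989 of the 415758 calls of the series, or 2.16%. The interval was chosen by its density of calls in the same 6 lists, so the number of calls in it and their crowding are given as a description, with no test. RefSeq places 92 genes there, 16 of them with Zfp symbols and 6 of them vomeronasal receptor pseudogenes.

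Calls came from 2 germ cell fractions of SV129 mice, adult males aged 8 to 12 weeks, purified by sedimentation from the pooled testes of 11 mice per collection to at least 85% purity. Round spermatids (RS) are haploid cells after meiosis. The sample titles call the other fraction (M) meiotic spermatid while the protocol calls it meiotic, so whether it held meiotic cells or spermatids is not settled by the labels. Nucleosome calls carry no expression markers by which either name could be checked. The labels give no mutation or drug treatment for any group. Micrococcal nuclease (MNase), which cuts the linker DNA between nucleosomes, was used at 0.5, 1 or 2 U. Digestion at 37 °C lasted 7.5 min and took RS cells in 2 times the number of M cells, so that the same amount was less MNase per RS cell. The 12 samples formed 6 groups of 2, and the authors made 1 list of 140 bp calls per group from both samples. No list has a replicate, so no difference below was tested, and the 95% intervals cover counting error only. They are too narrow where calls overlap.

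The RS lists held 179133, 41655 and 27101 calls at 0.5, 1 and 2 U, and the M lists held 42178, 60077 and 65614. The deposited p-values matched tails of Poisson distributions that start at 6 reads. This gives each call a number of implied reads and each list a mean coverage. That coverage was 0.696, 0.472 and 0.409 for RS and 0.434, 0.484 and 0.507 for M. The number of sequenced reads is unknown.

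Zinc finger genes of this kind encode DNA-binding proteins, many with a KRAB domain that recruits the corepressor TRIM28 (KAP1) to retrotransposons and other repeats, where histone H3 is methylated at lysine 9. They arise by duplication, lie in tandem arrays, and in mouse several arrays are young and rich in near-identical copies. Vomeronasal type 2 receptors detect pheromones in the vomeronasal organ, and the Vmn2r members in this interval are annotated as pseudogenes. The files use the C57BL/6J assembly, while the cells came from SV129 mice.

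The likeness of the copies is visible in the promoters. RefSeq promoter windows of build GRCm38.p6 run from 250 bases before to 50 bases after a gene start, and the closest pair among zinc finger genes of the cluster was Zfp600 at chr4:146156577-146156876 on the plus strand and Rex2, another zinc finger gene, at chr4:147021600-147021899 on the plus strand. They are shown with the next relative, Zfp979 at chr4:147642459-147642758 on the minus strand, because counts at copies this close are uncertain for short reads. Capitals in Rex2 mark the differences from Zfp600 base by base, A1T, C4A, A5C and C15A, counted from 1 at the 5′ end with the Zfp600 base first. This comparison allows no gaps. In an alignment with gaps the Zfp600 and Rex2 windows were identical at 299 of 300 bases, so the marked bases are not separate substitutions. Capitals in Zfp979 mark its differences from Zfp600 in an alignment with gaps.
Zfp600: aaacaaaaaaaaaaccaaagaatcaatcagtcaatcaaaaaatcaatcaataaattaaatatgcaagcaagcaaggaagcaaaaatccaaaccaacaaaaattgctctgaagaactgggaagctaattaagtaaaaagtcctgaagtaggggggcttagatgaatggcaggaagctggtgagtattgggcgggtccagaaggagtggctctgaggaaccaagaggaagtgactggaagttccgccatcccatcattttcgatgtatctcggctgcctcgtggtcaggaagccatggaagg
Rex2: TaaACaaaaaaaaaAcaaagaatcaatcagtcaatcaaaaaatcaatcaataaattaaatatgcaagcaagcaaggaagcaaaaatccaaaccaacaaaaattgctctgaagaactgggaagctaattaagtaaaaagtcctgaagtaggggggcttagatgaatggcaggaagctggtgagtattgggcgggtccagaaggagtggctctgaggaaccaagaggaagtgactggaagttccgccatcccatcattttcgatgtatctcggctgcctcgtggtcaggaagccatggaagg
Zfp979: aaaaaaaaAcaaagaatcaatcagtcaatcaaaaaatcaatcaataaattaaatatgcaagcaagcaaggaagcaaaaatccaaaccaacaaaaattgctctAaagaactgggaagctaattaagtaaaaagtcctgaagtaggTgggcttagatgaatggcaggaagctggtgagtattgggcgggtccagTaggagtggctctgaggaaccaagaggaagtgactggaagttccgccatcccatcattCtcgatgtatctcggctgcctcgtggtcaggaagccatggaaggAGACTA

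Of 132 pairs of zinc finger gene promoters from different genes of the cluster, 38, or 28.8%, were identical at 80% or more of their 300 bases. With 1 window taken per gene, it was 30 of 91 such pairs, or 33.0%, and 31 of 406 pairs among all genes of the cluster with a window, or 7.64%. The 3 Mb on either side of the cluster hold no Zfp gene, and there, among genes of any kind with 1 window each, it was 20 of 5778 pairs, or 0.346%. None of the 3 windows printed above held a call. The promoter windows of the cluster with the most calls belonged to genes of another kind, long noncoding RNAs. Gm13165 has such a window at chr4:146206777-146207076 and 4933438K21Rik one at chr4:147068387-147068686, both on the minus strand, and 1700095A21Rik at chr4:146546824-146547123, also on the minus strand, is the closest relative of the second. Capitals mark the bases under the strongest call in the first pair, and in 1700095A21Rik the differences from 4933438K21Rik, with which it was identical at 97.7% of 300 bases in an alignment with gaps. Strongest means the most implied reads over the coverage of the list. It was a call of 7 reads in M at 0.5 U at Gm13165 and of 7 in RS at 1 U at 4933438K21Rik, both near the minimum of 6.
Gm13165: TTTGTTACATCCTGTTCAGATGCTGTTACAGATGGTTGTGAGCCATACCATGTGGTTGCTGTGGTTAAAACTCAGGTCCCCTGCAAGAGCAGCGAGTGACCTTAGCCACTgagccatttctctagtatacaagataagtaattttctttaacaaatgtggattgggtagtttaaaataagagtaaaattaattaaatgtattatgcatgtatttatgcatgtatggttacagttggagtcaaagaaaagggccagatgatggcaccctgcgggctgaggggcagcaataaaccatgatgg
4933438K21Rik: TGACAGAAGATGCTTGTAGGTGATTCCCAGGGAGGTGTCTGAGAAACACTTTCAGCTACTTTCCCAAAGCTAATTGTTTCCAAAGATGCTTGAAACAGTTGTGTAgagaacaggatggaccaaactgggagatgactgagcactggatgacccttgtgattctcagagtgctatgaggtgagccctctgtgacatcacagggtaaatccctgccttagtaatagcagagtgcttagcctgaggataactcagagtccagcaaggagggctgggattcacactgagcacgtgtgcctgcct
1700095A21Rik: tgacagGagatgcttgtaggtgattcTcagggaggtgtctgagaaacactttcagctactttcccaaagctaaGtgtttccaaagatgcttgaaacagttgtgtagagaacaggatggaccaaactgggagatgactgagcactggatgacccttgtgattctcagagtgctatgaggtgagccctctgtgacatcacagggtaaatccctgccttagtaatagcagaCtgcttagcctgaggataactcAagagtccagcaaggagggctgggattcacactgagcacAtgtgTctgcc

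The cluster held 3037, 1226 and 925 calls in RS at 0.5, 1 and 2 U, and 1046, 1346 and 1409 calls in M. As a share of a list this was 1.70% (95% exact binomial interval 1.64% to 1.76%), 2.94% (2.78% to 3.11%) and 3.41% (3.20% to 3.64%) in RS. In M it was 2.48% (2.33% to 2.63%), 2.24% (2.12% to 2.36%) and 2.15% (2.04% to 2.26%). The 3 Mb make up 0.125% of the length of the autosomes, so every list held far more calls here than an even spread would place. The cluster ranked 1 of 824 windows of 3 Mb by calls over all lists, against a median of 432 calls. The windows were laid out from the edges of the interval, which was itself chosen by its density of calls. A high rank was therefore built into that choice and is description only. Of the calls on chromosome 4, the cluster held 23.6%, 38.4% and 43.9% in RS and 32.8%, 30.1% and 29.0% in M.

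Overlapping calls inflate these numbers. Calls with midpoints within 73 bp were merged into 1109, 531 and 420 positions in RS and 454, 546 and 589 positions in M. One merged position held up to 37 calls in RS at 0.5 U and up to 20 calls in any other list.

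**Figure D1:**
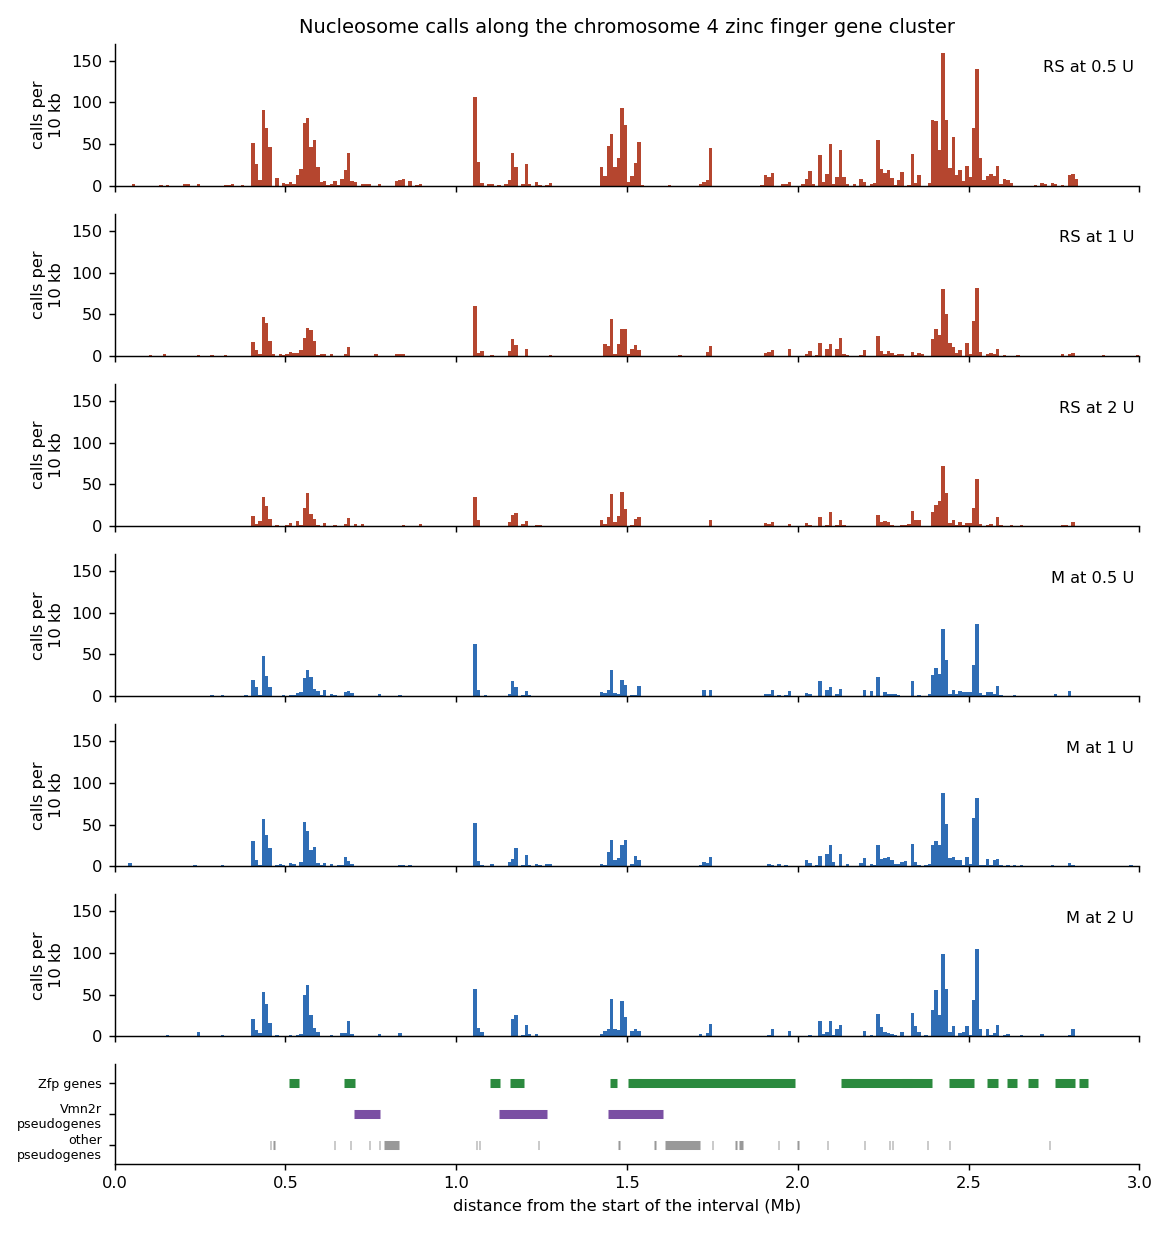
Calls per 10 kb bin along the 3 Mb interval, in RS (red, upper panels) and M (blue, lower panels) at 0.5, 1 and 2 U of MNase, with gene bodies by class at the bottom. The tallest bin held 159 calls in RS at 0.5 U, and the same blocks stand out in all 6 panels.

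The calls were crowded into few bins. Of 300 bins of 10 kb, 116 held no call in any list, 62 held calls in all 6 lists, and 44 passed 20 calls in 1 list or more (dense bins). These 44 dense bins held 77.9%, 81.6% and 84.4% of the cluster's calls in RS, and 83.3%, 79.8% and 83.5% in M. Near the threshold of 20, the highest list count was 21 in 1 bin and 22 in 1 bin, against 20 in 1 bin and 19 in 3 bins just outside. RS at 0.5 U, the longest list, had more than 20 calls in all 44 dense bins and was the only list to reach that in 19 of them, while 12 bins passed 20 calls in all 6 lists.

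The bin with the most calls, chr4:147420001-147430000, held 159, 80 and 72 calls in RS and 80, 88 and 99 in M, and lies in a stretch with no Zfp gene body. The next, chr4:147520001-147530000, spans the pseudogenes Vmn2r-ps20 and Gm13141 and held 140, 81 and 56 calls in RS and 86, 82 and 105 in M. The third, chr4:146050001-146060000, held 106, 60 and 35 calls in RS and 63, 52 and 57 in M. In all 3 the RS count was highest at 0.5 U and lowest at 2 U, as were the RS lists themselves. The fourth, chr4:145430001-145440000 in the protein-coding gene Gm42346, held 91, 47 and 35 calls in RS and 48, 56 and 53 in M. The fifth, chr4:147430001-147440000, adjoins the first and held 79, 50 and 40 calls in RS and 43, 51 and 57 in M. These 5 bins together held 23.9% of the cluster's calls.

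Joined where at most 1 bin lay between them, the dense bins formed 17 blocks, 9 of them a single bin. The 4 with the most calls held 51.4% of the calls of the cluster. The first by calls, chr4:147390001-147460000, held 1694 calls, 18.8% of the cluster, and runs from the end of Zfp978 to the start of Zfp982. The next, chr4:146420001-146500000 with Zfp992 and the first part of Vmn2r-ps16, held 1024 calls, followed by chr4:147490001-147540000 with 978 and chr4:145400001-145460000 with 925. Between the blocks lay long stretches with no call in any list. The longest, chr4:145894554-146050170, spanned 155.6 kb without an annotated gene, and the next, chr4:146272582-146425420, spanned 152.8 kb, also without one. The third, chr4:146747612-146892025, spanned 144.4 kb inside Zfp993, with 3 pseudogenes in it. The sequence of these stretches was not used here.

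The pattern of bins was alike in all lists. Over the 300 bins, Pearson's r between 2 lists was 0.936 to 0.960 in the 6 pairs within a stage, 0.918 to 0.961 in the 3 pairs between stages at the same amount, and 0.931 to 0.955 in the other 6 pairs. Spearman's rho was 0.739 to 0.804 over the 15 pairs. Bins of 1 list share its libraries and neighbouring bins are not independent, so these values describe the likeness of the profiles only. The 116 bins with no call in any list are among the 300 and can raise both measures, and the tallest bins weigh most in Pearson's r.

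Other zinc finger arrays held fewer calls. The window of 3 Mb with the most Zfp genes, on chromosome 13 from 67000001, has 23 of them and held 566 calls over all lists. The other 4 windows compared, on chromosomes 7 and 17, have 12 to 16 Zfp genes and held 222 to 593 calls. None of these 5 windows contained a dense bin, and neither did the flanks of the cluster, with 424 calls before it and 289 after it. The cluster was chosen for its dense calls and these windows were not, so the contrast is no test of zinc finger arrays.

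**Figure D2:**
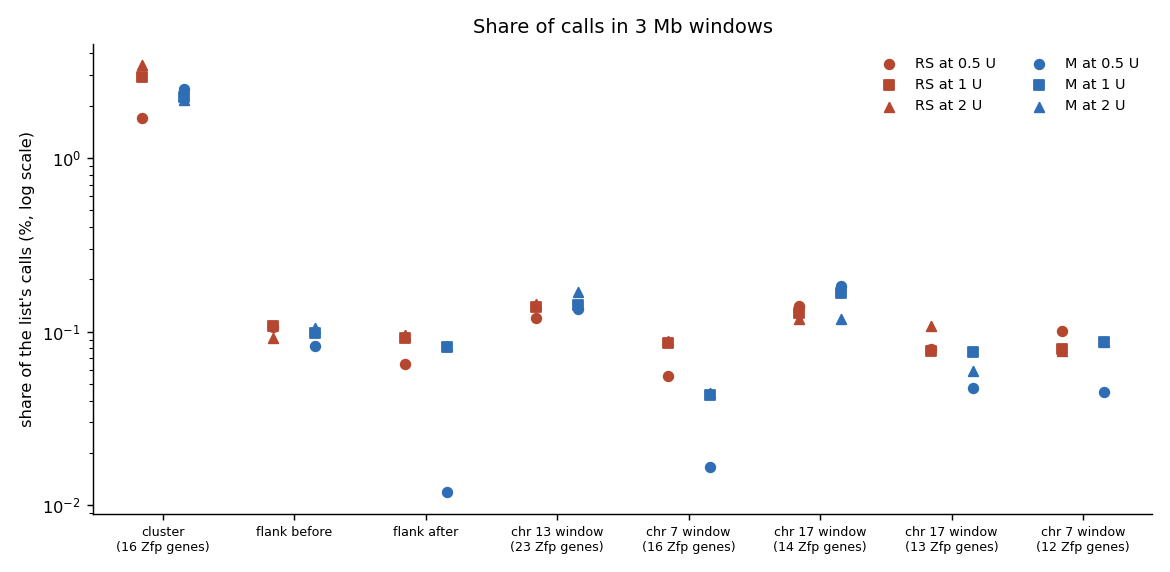
Share of each list's calls, in percent on a log scale, in the cluster, its 3 Mb flanks and 5 other windows rich in Zfp genes, in RS (red) and M (blue), with circles, squares and triangles for 0.5, 1 and 2 U. The cluster lies between 1.70% and 3.41%, above every other window in all 6 lists.

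The crowding was of moderate calls rather than of extreme ones. In the dense bins of the cluster, 21.1%, 10.8% and 9.35% of RS calls and 14.9%, 16.4% and 15.4% of M calls had 10 or more implied reads. In the 216 dense bins elsewhere in the genome these shares were 38.2%, 42.4% and 46.0% in RS and 39.9%, 39.3% and 40.4% in M. The strongest call of the cluster had 25 implied reads, in RS at 0.5 U. Dense bins elsewhere reached 153 in that list among calls with p-values of at least 1e-300. That list held 198 calls with smaller p-values, whose reads could not be resolved, so 153 is not a true maximum. Over the whole interval, 17.8%, 9.30% and 8.76% of RS calls and 13.4%, 13.7% and 13.1% of M calls had 10 or more reads, against 3.10%, 8.30% and 11.4% and 7.21%, 6.31% and 6.33% of the other calls of the same lists. The cluster was therefore above the rest of the list in 5 of 6 lists and below it in RS at 2 U.

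Individual positions recurred between lists far more often than those of the genome at large. Of the merged positions of the cluster, 4.60%, 10.7% and 14.3% in RS and 12.8%, 11.5% and 10.4% in M had a call within 73 bp in all 5 other lists. For dense bins outside the cluster the shares were 18.1%, 30.3% and 38.6% in RS and 34.0%, 26.0% and 24.3% in M. Over the rest of the autosomes they ran from 0.0989% to 0.829%. Between 59.2% and 84.8% of the cluster's positions had a match in at least 1 other list, and crowded calls raise the share that match by position alone, which was not separated here.

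Positions recurred within and between stages to a like extent. Pairs of lists within a stage shared on average 52.6% of the positions of the list with fewer, pairs between stages at the same amount 52.5%, and other pairs between stages 49.4%. As a share of the list with more positions, the 15 pairs shared 23.1% to 40.2%. Positions in all 3 lists of their own stage and in none of the other numbered 15, 19 and 19 in RS and 5, 4 and 4 in M, few of the positions of either stage.

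Starting from RS at 2 U, which had the fewest positions, 60 positions were found in all 6 lists, all in dense bins. Of these, 18 lay in the body of an annotated gene. The share of all positions in gene bodies was not computed, so this count has no direct background. By a wider measure, genes with 1000 bp on each side cover 68.2% of the interval and held 52.0% to 60.1% of its calls. The strongest, chr4:147424082-147424221, in no gene, had 20, 7 and 16 implied reads in RS and 23, 17 and 20 in M. The next, chr4:146174052-146174191, inside Zfp600, Vmn2r-ps17 and Gm13165, had 22, 15 and 13 reads in RS and 17, 15 and 12 in M. The first was lower in RS at 1 U than in any other list. The second stood at 31.6, 31.8 and 31.8 times the coverage of the list in RS and at 39.2, 31.0 and 23.7 times in M.

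Relative to the mean coverage of the list, the 60 positions had median implied reads of 16.5, 16.9 and 20.8 times coverage in RS, and 20.8, 18.6 and 21.7 times in M. Their median log2 ratios of RS over M were -0.30, -0.09 and 0.18 at 0.5, 1 and 2 U. At the 539 positions found in all 6 lists outside the cluster the medians were -0.27, 0.03 and 0.09. Only 6 of the 60 were higher in RS at all 3 amounts, where 12% of all 599 such positions were, and 11 were higher in M at all 3, where 16% were. These positions had to pass the minimum in every list, which is a higher multiple of coverage in the lists of lower coverage.

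The share of calls in the cluster was lower in RS than in M at 0.5 U and higher at 1 and 2 U. As log2 ratios of RS over M, the values were -0.55 (-0.65 to -0.45), 0.39 (0.28 to 0.50) and 0.67 (0.55 to 0.79) for 0.5, 1 and 2 U, with a mean of 0.17. At equal MNase per cell, the ratio was 0.25 (0.13 to 0.36) for RS at 1 U against M at 0.5 U, and 0.61 (0.49 to 0.73) for RS at 2 U against M at 1 U. The sign depended on the minimum a call has to reach. With 1 minimum for all lists, 14.7 times the coverage of the list, the ratios were 0.87, -0.24 and -0.77, opposite to those of the deposited lists at each amount. The mean was then -0.05. The mean of the deposited lists also moved with each amount left out: it was 0.53 without 0.5 U, 0.06 without 1 U and -0.08 without 2 U.

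Along the titration, the cluster's share of RS calls was higher at 2 U than at 0.5 U by a log2 ratio of 1.01 (0.90 to 1.11), while in M it was lower, at -0.21 (-0.32 to -0.09). RS coverage was lower at higher amounts of MNase and M coverage was higher, so the height of the minimum over coverage moved with the same lists. With 1 minimum for all lists, both directions turned, to -1.19 in RS and 0.45 in M. With calls above the minimum of implied reads alone, the values were 0.58 in RS and -0.019 in M. Dense bins elsewhere went the same way, with 1.70 in RS and -0.22 in M between 2 U and 0.5 U. Their RS over M ratios were -1.22, 0.32 and 0.70 at 0.5, 1 and 2 U. Set against them, the cluster was higher in RS by 0.67 (0.56 to 0.78) at 0.5 U, but by 0.08 (-0.04 to 0.20) at 1 U and -0.03 (-0.16 to 0.10) at 2 U, where the intervals include 0. All calls of the cluster entered here, not those of its dense bins alone, so the 2 sets of bins are unlike.

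**Figure D3:**
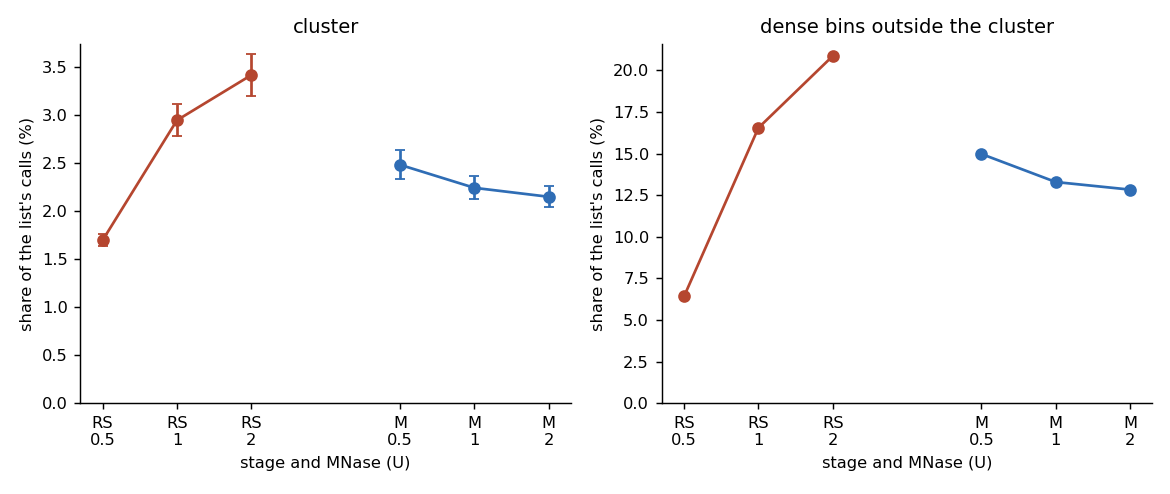
Share of each list's calls in the cluster (left, with 95% exact binomial intervals) and in the 216 dense bins outside it (right, no intervals drawn), by MNase amount in RS (red) and M (blue); lines join the amounts of a stage. The cluster's share was 1.70% to 3.41% in RS, highest at 2 U, and 2.15% to 2.48% in M, highest at 0.5 U.

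Single bins were compared where both lists of an amount together held 10 calls or more, with a 2-fold difference in calls per 100000 calls as the limit. At 0.5 U, 8 of 78 cluster bins were higher in RS, where 12.5% of all bins compared were, and 23 were higher in M, where 36.1% were. At 1 U, 10 of 57 were higher in RS, where 12.8% were, and 4 in M, where 11.5% were. At 2 U, 14 of 52 were higher in RS, where 27% were, and 1 in M, where 5.49% were. The shares of the cluster were thus near those of all bins, or below them on the M side.

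At all 3 amounts, 11 of 43 cluster bins with 10 calls or more at each amount were higher in RS, or 25.6%, where 8.5% of all 341 such bins were. Only 1 of the 43 was higher in M at all 3 amounts, or 2.33%, where 12% were. The 341 bins include the 43 of the cluster. The direction at 1 and 2 U was the common one in the cluster, with 32 and 40 of the 43 bins higher in RS, and 15 were higher in RS at 0.5 U. Of the 11, 6 overlap Vmn2r-ps16, in chr4:146440001-146450000, chr4:146470001-146500000 and chr4:146520001-146540000, and the others are spread from Gm13212 to Zfp982. The sign for the whole cluster turned with 1 minimum for all lists, as given above. Single bins and blocks were not counted that way, so their directions hold for the deposited lists only.

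The largest mean log2 ratio, 1.35, was that of chr4:146470001-146480000 in Vmn2r-ps16, with 34, 14 and 12 calls in RS and 3, 10 and 8 in M. The next 2 by the mean, chr4:147240001-147250000 in Zfp978 with 20, 6 and 5 calls in RS and 0, 9 and 11 in M, and chr4:146520001-146530000 with 28, 13 and 9 in RS and 2, 12 and 9 in M, had their lowest M count at 0.5 U, as did the first. The second of these spans Zfp981, Zfp993 and Vmn2r-ps16. In M the largest difference was at chr4:147550001-147560000 at the start of Zfp985, with 12, 3 and 2 calls in RS and 5, 9 and 9 in M and a mean log2 ratio of -0.82. It was followed by chr4:147330001-147340000 at the end of Zfp988, with 38, 5 and 18 calls in RS and 18, 27 and 28 in M, where RS was lowest at 1 U. The third was chr4:145550001-145560000, with 75, 22 and 22 calls in RS and 22, 53 and 49 in M.

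**Figure D4:**
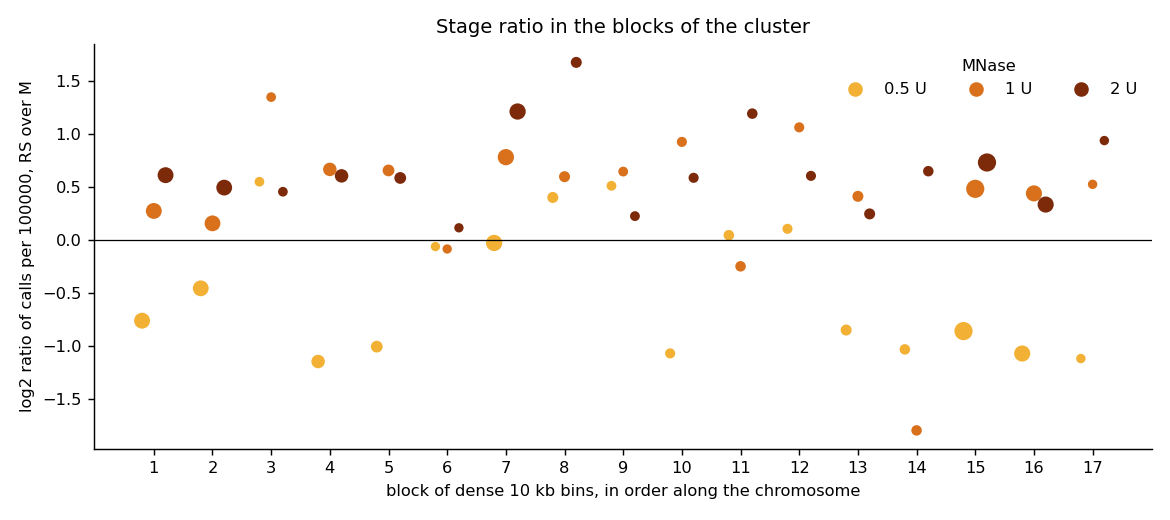
Log2 ratio of calls per 100000 calls, RS over M, in the 17 blocks of dense bins in order along the chromosome, at 0.5, 1 and 2 U of MNase; the area of a point grows with the calls of the block and the line marks equal shares. The 4 largest blocks by calls (15, 7, 16 and 1) lie below 0 at 0.5 U and above 0 at 1 and 2 U.

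Among the blocks, chr4:146420001-146500000 with Zfp992 and Vmn2r-ps16 stood at log2 ratios of -0.02, 0.78 and 1.22, with 369, 153 and 140 calls in RS and 88, 128 and 146 in M. Its neighbour chr4:146520001-146540000, with Zfp981, Zfp993 and Vmn2r-ps16, stood at 0.40, 0.60 and 1.68, with 81, 20 and 20 calls in RS and 14, 19 and 15 in M. The block with the most calls, chr4:147390001-147460000, stood at -0.86, 0.49 and 0.73, with 519, 234 and 195 calls in RS and 221, 241 and 284 in M. Both blocks around Vmn2r-ps16 were thus higher in RS than the block with the most calls at every amount. The bins of chr4:146520001-146540000 were dense only through RS at 0.5 U, so its ratio there draws on the list that chose it. Blocks chr4:145680001-145690000 and chr4:146740001-146750000, dense only through the same list, stood higher at 0.5 U, at 0.55 and 0.51.

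Calls did not gather on gene bodies. Genes with 1000 bp on each side cover 68.2% of the interval and held 60.1%, 56.3% and 57.0% of its calls in RS and 52.0%, 54.7% and 53.8% in M. Of the 92 genes, 69 held at least 1 call, and 26 held calls in all 6 lists. The 16 Zfp genes cover 39.5% of the interval and held 34.4%, 30.3% and 30.7% of the calls in RS, and 28.6%, 30.6% and 29.8% in M. The 6 vomeronasal pseudogenes cover 12.9% and as a class held more than their length would give, 19.8%, 20.2% and 23.2% in RS and 14.1%, 16.8% and 17.7% in M. Most of these calls were at Vmn2r-ps16, which held 7.05 per kb over the 6 lists, against 3.0 for the interval. Vmn2r-ps18 and Vmn2r-ps20 also lay above that mean, with 10.1 and 52.3 per kb. Their bodies span only 0.269 and 0.294 kb, so most of the length counted there was the windows beside them. Vmn2r-ps17, Vmn2r-ps19 and Vmn2r-ps15 lay below it, with 2.63, 2.66 and 0.249 per kb. Several bodies overlap, and a call in an overlap is counted for each gene, so the 2 classes share calls around Vmn2r-ps16 and Vmn2r-ps17.

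Zfp978, Zfp982 and Zfp992 are zinc finger genes named for this cluster. Zfp978, chr4:147124882-147392027, held 294, 93 and 80 calls in RS and 84, 154 and 138 in M, with log2 ratios of -0.29, -0.20 and 0.49. Zfp982, chr4:147443114-147516064, held 175, 64 and 32 calls in RS and 44, 66 and 47 in M, with ratios of -0.11, 0.48 and 0.73. Zfp992, chr4:146449030-146469440, held 96, 48 and 46 calls in RS and 37, 42 and 54 in M, with ratios of -0.72, 0.72 and 1.05. All 3 were lower in RS at 0.5 U and higher at 2 U, as was the whole cluster. Per kb over the 6 lists, Zfp992 held 14.4 calls, Zfp982 held 5.71 and Zfp978 held 3.13, against 3.0 for the interval as a whole.

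Other genes with many calls are listed by the number of calls over the 6 lists. Vmn2r-ps16 held the most, with 431, 170 and 148 calls in RS and 94, 145 and 157 in M, but its body of 160.4 kb overlaps 8 other genes, Zfp992 among them. Gm42346 held 217, 104 and 69 in RS and 90, 108 and 108 in M, and Zfp993, whose body of 478.6 kb overlaps 16 other genes, held 207, 71 and 44 in RS and 51, 52 and 61 in M. Vmn2r-ps17 held 109, 49 and 46 calls in RS and 41, 59 and 70 in M, and overlaps Zfp600, which held 70, 38 and 35 in RS and 33, 35 and 50 in M. The noncoding RNA gene Gm13165 lies there too, with 90, 40 and 37 calls in RS and 31, 52 and 63 in M.

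Zfp981 held 98, 31 and 22 calls in RS and 16, 22 and 21 in M, and was higher in RS at all 3 amounts, with log2 ratios of 0.49, 1.01 and 1.34. The noncoding RNA gene 1700095A21Rik, which overlaps it, held 85, 23 and 22 in RS and 15, 20 and 15 in M. These 2 genes share the bins of the RS-higher block described above. The zinc finger genes Zfp980 with 159 calls, Zfp985 with 152 and Zfp984 with 84 over the 6 lists, and Gm13212 with 89 and Rex2 with 85, complete the protein-coding genes with many calls.

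**Figure D5:**
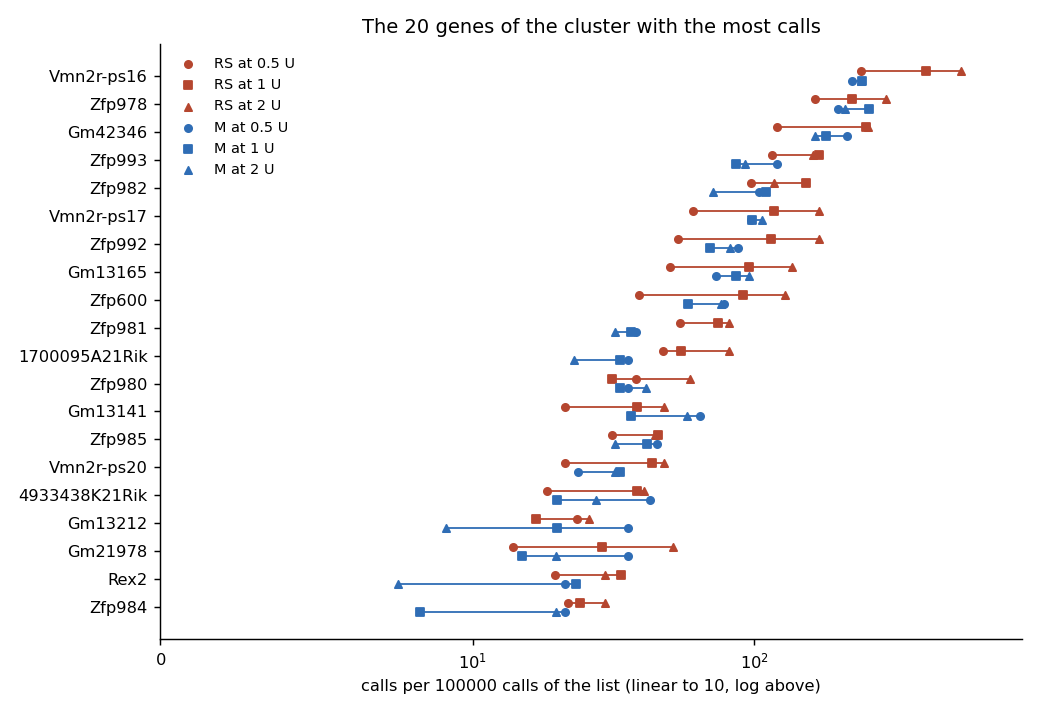
Calls per 100000 calls of the list (linear up to 10, log scale above) within 1000 bp of the 20 genes of the cluster with the most calls, in RS (red) above M (blue), with circles, squares and triangles for 0.5, 1 and 2 U and a line over the range of a stage. Genes that overlap share calls, and the RS range lies mostly to the right of the M range for Vmn2r-ps16, Zfp981, 1700095A21Rik and Zfp984, among others.

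The highest values per kb, windows included, were those of a few short pseudogenes. At genes this short the 1000 bp windows make up most of the length counted, so the values describe the surrounding sequence more than the pseudogenes. Pseudogenes as a class were not dense. The 50 pseudogenes other than the vomeronasal ones had a median of 0.75 calls per kb, and 33 of them held a call. Gm13141, a pseudogene of 0.648 kb, held 58.2 calls per kb over the 6 lists, with 38, 16 and 13 calls in RS and 27, 22 and 38 in M. Vmn2r-ps20 held 52.3 per kb, with 38, 18 and 13 calls in RS and 10, 20 and 21 in M. Both lie in the bin with the second most calls, which held 550 in its 10 kb. The bin with the most calls, outside both genes, held 578. Gm21978 held 40.7 per kb, with 25, 12 and 14 calls in RS and 15, 9 and 13 in M. Gm42346 held 17.0 per kb, and 4933438K21Rik, at chr4:147063366-147068436, held 15.3 per kb, with 33, 16 and 11 calls in RS and 18, 12 and 18 in M.

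At 2 U, 22 of the 23 genes of the cluster with 10 calls or more over both lists had a higher share in RS, where 44.6% of all 840 such genes of the genome did. At 1 U it was 21 of 27, where 46.7% did, and at 0.5 U 10 of 28, where 55.9% did. Among them, all 10 Zfp genes and all 3 Vmn2r pseudogenes that could be compared at 2 U were higher in RS. At 0.5 U, 5 of 13 Zfp genes and 2 of 4 Vmn2r pseudogenes were. The median log2 ratio of the cluster's genes was -0.20, 0.53 and 0.77 at 0.5, 1 and 2 U, and that of all genes was 0.24, -0.03 and -0.14. These directions were not particular to the cluster, since the dense bins outside it stood at -1.22, 0.32 and 0.70. Genes that overlap are counted with the same calls, so they are not independent, and the signs carry the dependence on the minimum given above.

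The following genes were chosen after their values were seen. Vmn2r-ps15 held 11, 2 and 6 calls in RS and none in the 3 M lists, each of which allows up to 3 calls. Zfp988 held 13, 0 and 6 calls in RS and 1, 10 and 3 in M. Calls were scarce at the end of the interval. No list held a call at the zinc finger gene Zfp933, at Miip or at Fv1, which restricts murine leukaemia viruses. The same was true of Plod1, which encodes a collagen lysyl hydroxylase, and Nppb, which encodes B-type natriuretic peptide. Mfn2, which encodes a mitochondrial fusion protein, held 1 call. At the other end, Tnfrsf1b, which encodes a TNF receptor, held 13 calls over the 6 lists and Tnfrsf8, which encodes CD30, held 5. Between the first and last dense block, chr4:145400001-147590000, lay 97.8% of all calls of the cluster.

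Promoters of zinc finger genes held few calls. The 15 promoter windows of 12 Zfp genes held 2 calls in all over the 6 lists, 1 at Zfp993 and 1 at Zfp985, or 0.133 per window, against a mean of 0.899 per 300 bp of the interval. The other 25 windows held 14 calls, 9 of them in the Gm13165 window and 4 in the 4933438K21Rik window whose sequences are given above. Of the 9 calls in the Gm13165 window, 2 were in RS, both at 0.5 U, and 3, 1 and 3 were in M at 0.5, 1 and 2 U. In the wider 1 kb on each side of 15 Zfp starts there were 70 calls, 2.33 per kb, of which 18, 15 and 8 were in RS and 3, 16 and 10 in M. Over the 5 kb on each side of the starts, the calls per kb and start ran from 1.00, between 4 kb and 3 kb before them, to 4.60, between 4 kb and 5 kb after them, around the mean of 3.0 per kb of the interval. The Zfp windows had a median GC content of 43.0% and 4 CpG dinucleotides, against 52.7% and 7 over all 32851 promoter windows of the table.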

How the data were processed

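MNase-seq of 12 samples in 6 groups of 2 was analysed. STAR 2.5.2a and the builds GRCm38 and mm10 are named in the submitters' processing notes, and the nucleosome caller is not given in the sources used here. The authors pooled both replicates of each group into 1 list, according to the series' design text, and replicates could therefore not be compared. Whether they came from separate collections is not stated there. The authors deposited 140 bp calls with a p-value each, and no read counts.

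From these values, implied reads and a mean coverage per list were derived by matching the p-values to Poisson tails. All p-values of at least 1e-300 lay within 1.06e-10 of a tail on the natural log scale, and smaller ones were given the next count. A single call at the minimum rests on 6 implied reads, which limits statements on single genes and bins. A call belonged to the cluster by its midpoint, and its members and all lists of genes, bins and tests were chosen with earlier results of these data known. Calls with midpoints within 73 bp were merged, and a match between lists used the same distance. A 10 kb bin was called dense where a list had over 20 calls in it. Log2 ratios compare shares of a list's calls, with 0.5 calls added for bins, blocks and genes, and their 95% intervals come from the counts. Shares have exact binomial (Clopper-Pearson) intervals.

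Genes and promoter sequences came from RefSeq tables of GRCm38.p6, which give no exons, and 29 of the 92 genes had a promoter window, 40 windows in all. Identity of promoters was that of a global alignment with gaps over 300 bases. For each gene, calls were counted from 1000 bp before its body to 1000 bp after it. Named genes were Zfp978, Zfp982, Zfp992 and the 20 genes with the most calls. Named bins were the 5 with the most calls and, per stage, the 3 with the largest mean log2 ratio among bins with 10 calls or more at each amount. Any other gene was picked with its values in view. No genome sequence was used, so the bases of dense bins, repeats and copy number were not analysed. RS and M were compared at 1 amount of MNase and at equal MNase per cell, with no test. Alternatives were a higher minimum, merged calls, other denominators, boundaries, bin sizes, folds, distances and gene windows. The steps were tested on simulated data. Python 3.11.15, numpy 2.4.6, pandas 2.3.3, scipy 1.17.1 and biopython 1.88 were used.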

Additional observations from a re-analysis of the deposited data

Results flagged for a closer look

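In the deposited lists, the cluster's share of calls moved in opposite directions along the titration in the 2 stages. Between 2 U and 0.5 U the log2 ratio of the share was 1.01 in RS and -0.21 in M. Dense bins outside the cluster gave 1.70 in RS and -0.22 in M. With 1 minimum relative to coverage for all lists, both directions of the cluster turned, to -1.19 in RS and 0.45 in M, and with calls above the minimum of implied reads alone they were 0.58 and -0.019. With 1 list per stage and amount, the difference between the stages was not tested.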

How the results depend on the processing

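No paired analysis was possible because each list was made from both replicates of a group, and no replicate was left out for the same reason. Values below are in the order RS at 0.5, 1 and 2 U, then M at 0.5, 1 and 2 U, unless said otherwise. Of 179 alternative values, 72 stayed within a tolerance, 99 moved beyond it and 8 reversed. The tolerance was 1.5 times for counts and the 95% counting interval for shares and log2 ratios.

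The reversed values were all log2 ratios of the share. With 1 minimum relative to coverage, an alternative chosen after seeing the data, the log2 ratio of the share of RS over M was 0.87, -0.24 and -0.77 at 0.5, 1 and 2 U, with a mean of -0.046. At equal MNase per cell it was 0.25 and 0.61, where the first reversed against the same amount. The mean was -0.078 without 2 U, 0.53 without 0.5 U and 0.060 without 1 U. Counting calls above the minimum of implied reads gave -0.21, 0.26 and 0.39. Merged positions gave -0.84 at 0.5 U and 0.85 at 2 U. Per calls on autosomes outside dense bins the ratio was -0.74 at 0.5 U and 0.83 at 2 U. Per calls on the rest of the chromosome it was -0.66, 0.54 and 0.94, with a mean of 0.27. For 2 U over 0.5 U, with alternatives added after seeing the data, the common minimum gave -1.19 in RS and 0.45 in M, and calls above the minimum gave 0.58 in RS and -0.019 in M. In RS, merged positions gave 1.43, calls on autosomes outside dense bins 1.30 and calls on the rest of the chromosome 1.34.

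Counts moved by construction. Calls above the minimum numbered 2013, 689 and 505, then 621, 822 and 886; merged positions numbered 1109, 531 and 420, then 454, 546 and 589. With the common minimum 373 and 689 calls were left in RS at 0.5 and 1 U, and 621, 474 and 493 in M. The share of the list was 3.68%, 5.19% and 5.49%, then 4.25%, 4.34% and 4.20%, above the minimum. It was 0.953%, 2.04% and 2.57%, then 1.71%, 1.45% and 1.43%, in merged positions. Per 100 calls on autosomes outside dense bins it was 1.85, 3.68 and 4.55, then 3.08, 2.70 and 2.56. Per 100 calls on the rest of the chromosome it was 30.9, 62.5 and 78.3, then 48.9, 43.0 and 40.9.

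The share of cluster calls in the densest bins, with 20 kb bins, was 74.5% in RS at 0.5 U, 80% in RS at 2 U, and 80.3%, 76.6% and 79.0% in M; bins moved by 5 kb gave 81.0% in M at 2 U. Of 53, 35 and 31 cluster bins with at least 20 calls at 0.5, 1 and 2 U, 3, 6 and 7 were past 2-fold higher in RS, where 5.23%, 7.46% and 25.9% of all such bins were, and 14, 1 and 0 higher in M, where 42.5%, 5.26% and 3.07% were. Past 1.5-fold, of 78, 57 and 52 bins, 11, 20 and 26 were higher in RS, where 18.5%, 27.9% and 43% of all bins were, and 34, 6 and 2 higher in M, where 52.8%, 19.6% and 12.9% were. Positions found in all 5 other lists within 20 bp made up 1.80%, 3.95% and 5.71%, then 4.85%, 3.85% and 2.89%. Within 140 bp they made up 8.66%, 18.8% and 24.3%, then 21.4%, 17.8% and 18.3%, and above the minimum 6.32%, 15.2% and 20.6%, then 17.8%, 18.0% and 15.4%. With 8 or more implied reads in place of 10 the share of calls was 41.7%, 30.7% and 27.9%, then 35.6%, 35.2% and 35.0%.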
